A study of Homo sapiens with 12 samples.

Results

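The genes described here are 43 core components of the spliceosome, taken by name out of the 37471 genes analysed: the proteins of the small nuclear ribonucleoproteins (snRNPs), the PRP19 complex and its partners, and splicing helicases and factors. They were measured in polyA RNA of CAL62 cells, which derive from a human anaplastic carcinoma of the thyroid. Of a pair of isogenic CAL62 lines, the miR-139 line makes mature hsa-miR-139-5p from a doxycycline-inducible promoter and the scrambled line a non-targeting control from the same kind of promoter. Each line was sampled untreated at 0 h and after 96 h with 1 µg/ml doxycycline, and each of the 4 groups has 3 libraries, whose columns carry the tags C, NE and TR. What the tags stand for is not given in the sources used here, and neither is whether each line is a single clone or which libraries came from separate cultures, so p-values measure the spread between libraries, which may be partly technical. The series links the miRNA to HNRNPF, an hnRNP protein with a role in splice site choice, and the comparison of the splicing machinery with and without the miRNA follows from that design.

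The spliceosome removes introns from pre-mRNA. It is built anew on each intron: U1 marks the 5′ splice site, U2 the branch point, and the tri-snRNP of U4, U6 and U5 then joins, after which U1 and U4 leave and the PRP19 complex helps to hold the catalytic RNA core. Every snRNA but U6 of this major pathway is wrapped in a ring of Sm proteins, whereas U6 carries a related ring of LSm proteins. A separate minor spliceosome, with U11 and U12 in the places of U1 and U2, removes a rare class of introns. All proliferating cells need these proteins, and inhibitors of the U2 protein SF3B1 stop splicing in tumour cells.

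The induced miRNA and the few matches to its seed among these genes are shown first, since pairing of the seed with a 3′ untranslated region is the usual route by which a miRNA lowers an mRNA. The mature miRNA (RefSeq, GRCh38.p14, chr11:72615102-72615124, minus strand) is printed 5′ to 3′ with its seed, bases 2 to 8, in capitals.
hsa-miR-139-5p: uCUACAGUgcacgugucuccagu
The complement of the seed, ACTGTAG, was searched on the transcript strand in the longest annotated 3′ untranslated region of each member in GENCODE 29 (GRCh38). It was found in 4 of 43 members (9.3%), against 11.4% of the 7615 tested genes that have such a region. AQR had 2 matches and DHX8, PRPF38A and SF3A3 had 1 each. The matches are in capitals, each within the last exon of its gene.
AQR, near the start of the region: ccaaACTGTAGtccttctaaagg
AQR, farther along: agtggcagttgACTGTAGaatcttgggaat
DHX8: atgctagaactACTGTAGaactgtatgcca
PRPF38A: tgacttctgcaACTGTAGtcccagcaggaa
SF3A3: tggtggcacgcACTGTAGtcccagctactc
The matches lie at chr15:34856781-34856787 and chr15:34854572-34854578 (minus strand) in AQR, chr17:43525285-43525291 (plus strand) in DHX8, chr1:52418024-52418030 (plus strand) in PRPF38A and chr1:37957491-37957497 (minus strand) in SF3A3. An A follows the match in the distal AQR site and in the DHX8 site, which places it opposite the first base of the miRNA. A match is a description of the sequence and shows no pairing.

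Across the 12 libraries the FPKM of the 37471 genes summed to 534216 to 664359, and 9518 to 9884 genes reached 1 FPKM. FPKM is a fragment count scaled to transcript length and to the library total, so it can be compared between genes, but it keeps no counts here and the depth of each library is unknown. HNRNPF, the check of the induced miRNA, had a log2 change of −1.05 with doxycycline in the miR-139 line (limma, SE 0.18, adjusted p = 0.337, or SE 0.08 and adjusted p = 3.61e-05 where same-tag libraries formed a replicate block). Among thyroid markers, PAX8 averaged 107 FPKM, while NKX2-1 was listed at 0 and TSHR and SLC5A5 averaged at most 0.00181. Of the epithelial genes KRT8 averaged 618 FPKM, KRT18 663, EPCAM 39.2 and CDH1 0.0362. Of the mesenchymal genes VIM averaged 1710, FN1 230 (31.4 to 574 across libraries) and CDH2 23.1. Of the fibroblast genes COL1A1 averaged 62, LUM 0.135 and DCN 0.0096. The leukocyte genes PTPRC and CD3E were listed at 0 and CD68 averaged 8.68 FPKM. The NE libraries stood apart from the other 8. They had 9518 to 9633 genes at 1 FPKM or more against 9803 to 9884, mitochondrially encoded genes took 6.09 to 9.18% of their summed FPKM against 11.4 to 13.1%, and the 43 members took 0.934 to 1.01% against 0.754 to 0.823%. The part of these differences in the results below was not tested.

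All 43 members were expressed, with mean FPKM from 13.2 (CWC22) to 800 (SNRPB) and a median of 71.5, and 42 of 43 lay above the median of the 9778 tested genes, 14.4 FPKM. Of these, 17 reached a mean of 100 FPKM. The Sm ring had the highest median of the roles (138 FPKM) and the pair of DEAH-box helicases the lowest (31.8 FPKM). Within 1 role, mean mRNA levels differed by 13.28-fold among the 3 U1 genes, 12.03-fold among the PRP19-related genes and 11.5-fold in the Sm ring. They differed by 2.71-fold among the 6 genes of U5 and the tri-snRNP. A role need not be 1 particle, and the U1 role includes PRPF39, a U1-associated factor. The libraries are bulk RNA, in which fewer cells of a kind and less RNA per cell cannot be told apart.

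**Figure D1:**
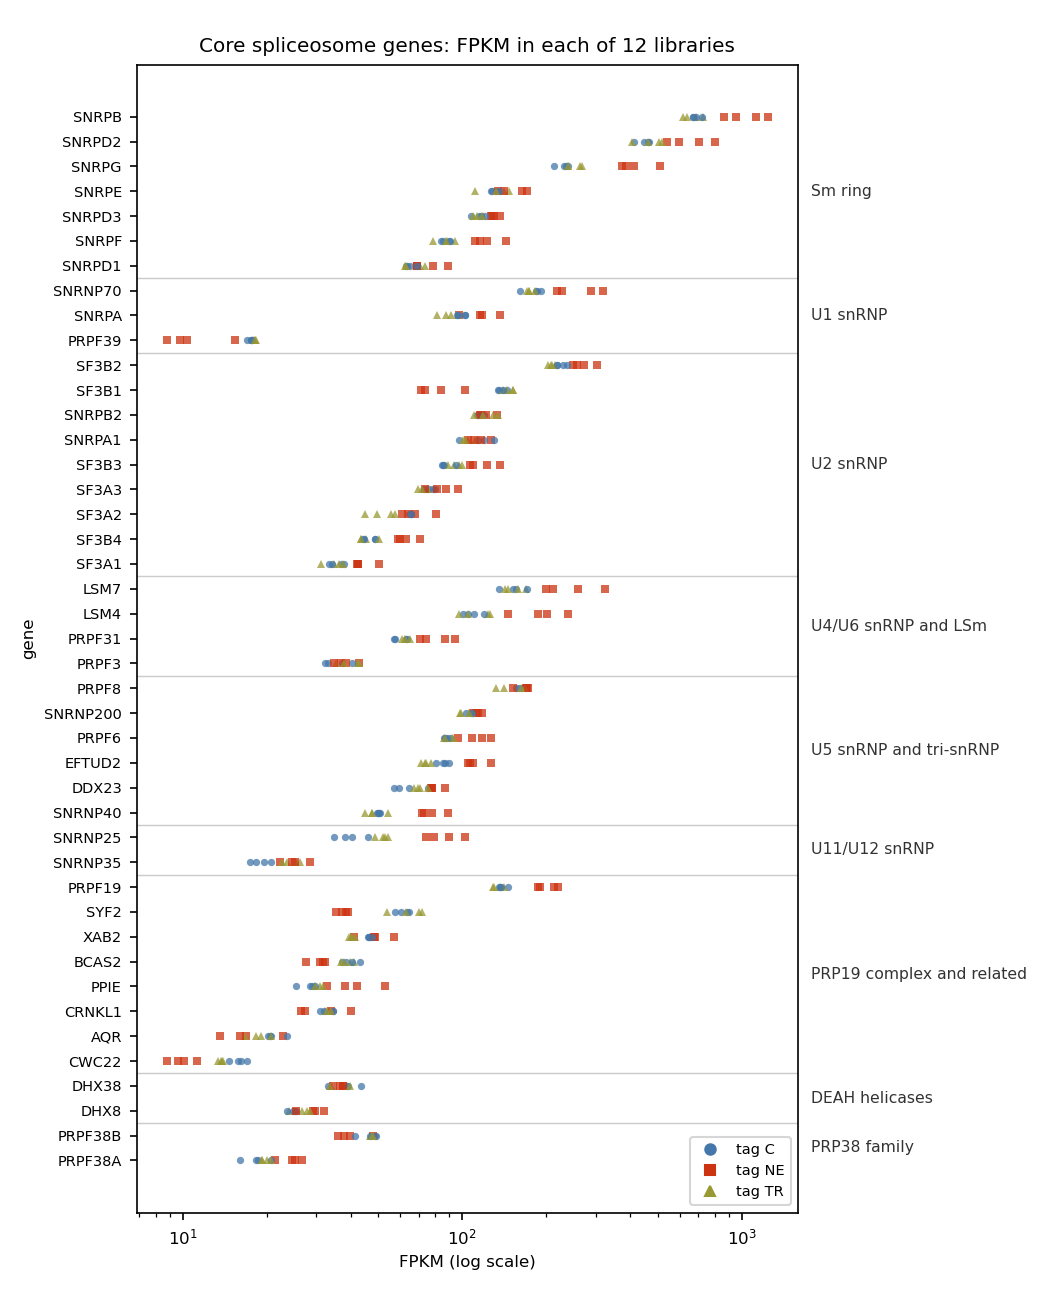
FPKM (log scale) of each of the 43 genes in each of the 12 libraries, grouped by role and ordered by mean within a role, with the tag shown by colour and shape. NE libraries (squares) lie to the right of the others in most Sm, U4/U6 and U5 genes, and to the left in SF3B1, SYF2, PRPF39, CWC22 and BCAS2.

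In the sentences that follow, 3 values in a row are the C, NE and TR libraries of a group, in that order. The 7 Sm proteins form the ring on which an snRNP is built. SNRPB, the most abundant, stood at 668, 863, 727 FPKM in untreated and 723, 954, 686 in treated miR-139 cells, and 689, 1126, 619 in untreated and 668, 1241, 636 in treated scrambled cells. SNRPD1, the least abundant of the ring, stood at 65.1, 78.3, 70.5 FPKM in untreated and 63.3, 68.8, 73.5 in treated miR-139 cells, and 63.02, 68.7, 63.03 in untreated and 69.2, 89.2, 62.5 in treated scrambled cells. The 4 NE libraries of SNRPB lay above the other 8, whereas those of SNRPD1 overlapped them. SNRPE stood at 127, 171, 146 FPKM in untreated and 132, 134, 141 in treated miR-139 cells, and 127, 141, 111 in untreated and 135, 164, 132 in treated scrambled cells. SNRPG stood at 232, 385, 267 FPKM in untreated and 239, 374, 264 in treated miR-139 cells, and 214, 413, 238 in untreated and 235, 510.1, 239 in treated scrambled cells. For SNRPG every NE library was above every other library, and for SNRPE the untreated miR-139 NE library was the highest of the 12. SNRPD2 ranged over 406 to 805 FPKM, SNRPD3 over 108 to 137 and SNRPF over 78.3 to 144, each with its 4 NE libraries above the rest.

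The U1 snRNP recognises the 5′ splice site. Its protein SNRNP70 (U1-70K), which binds a stem-loop of U1, stood at 184, 228, 171 FPKM in untreated and 191, 218, 174 in treated miR-139 cells, and 161, 289, 174 in untreated and 185, 319.5, 182 in treated scrambled cells. SNRPA, the protein on another stem-loop, ranged over 81.4 to 137 FPKM. PRPF39, a U1-associated factor, stood at 17.03, 15.4, 18.2 FPKM in untreated and 17.6, 10.3, 17.8 in treated miR-139 cells, and 17.7, 9.81, 18.3 in untreated and 17.5, 8.77, 18.1 in treated scrambled cells. SNRNP70 was highest and PRPF39 lowest in the NE libraries, with no overlap with the other 8 for either gene. These 2 genes of the U1 role thus lay on opposite sides of the C and TR libraries.

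The U2 snRNP carries the SF3A and SF3B complexes, which hold the branch-point helix. SF3B2, the most abundant of the 9 genes, stood at 217, 249, 203 FPKM in untreated and 237, 258, 215 in treated miR-139 cells, and 218, 272, 207 in untreated and 229, 303, 210.1 in treated scrambled cells. SF3A1, the least abundant, stood at 37.7, 42.3, 31.3 FPKM in untreated and 36.96, 42.1, 34.7 in treated miR-139 cells, and 34.1, 42.4, 36.2 in untreated and 33.4, 50.4, 37.5 in treated scrambled cells. Both were higher in the 4 NE libraries than in any other. SF3B1, the subunit that clamps the branch-point adenosine, stood at 145, 102, 152 FPKM in untreated and 134, 83.7, 144 in treated miR-139 cells, and 136, 73.6, 140.3 in untreated and 140.5, 71.3, 152 in treated scrambled cells. Its 4 NE libraries were the 4 lowest. SF3A2 stood at 65.4, 60.7, 44.8 FPKM in untreated and 64.6, 63.9, 49.4 in treated miR-139 cells, and 65.7, 67.97, 57.5 in untreated and 65.7, 80.4, 55.6 in treated scrambled cells. SF3A3 stood at 79.9, 96.5, 69.7 FPKM in untreated and 76.1, 87.7, 75.7 in treated miR-139 cells, and 78.6, 80.97, 75.1 in untreated and 73.04, 73.7, 71.7 in treated scrambled cells. The 4 TR libraries of SF3A2 were its 4 lowest, and the tags of SF3A3 overlapped. SNRPA1 ranged over 97.8 to 130.3 FPKM and SNRPB2 over 110 to 134, with overlapping tags, and SF3B3 over 84.4 to 136 and SF3B4 over 43.4 to 70.8, with the NE libraries highest.

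Among proteins of U4/U6, PRPF3 and PRPF31 hold the paired snRNAs, and LSM4 and LSM7 belong to the ring on U6, and to a related cytoplasmic ring that acts in mRNA decay. LSM7, the most abundant, stood at 135, 199.9, 169 FPKM in untreated and 152, 211, 146 in treated miR-139 cells, and 156, 260.4, 142 in untreated and 170.4, 325, 158 in treated scrambled cells. PRPF3, the least abundant, stood at 37.1, 42.8, 42.3 FPKM in untreated and 40.3, 38.3, 42.7 in treated miR-139 cells, and 33.2, 36.7, 35.5 in untreated and 32.2, 34.9, 37.6 in treated scrambled cells. LSM4 stood at 105, 146, 124 FPKM in untreated and 119, 187, 126 in treated miR-139 cells, and 101, 201, 97.6 in untreated and 110.2, 238, 105 in treated scrambled cells. The NE libraries of LSM4 and LSM7 were above all others and highest in the scrambled line. The tags of PRPF3 overlapped, although its TR library was above its C library in every group. PRPF31 ranged over 57.1 to 94.3 FPKM.

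U5 and the tri-snRNP bring the catalytic scaffold. PRPF8, which cradles the active site, stood at 168, 170.2, 141 FPKM in untreated and 164, 169, 132 in treated miR-139 cells, and 156, 152, 168 in untreated and 160.1, 172, 163 in treated scrambled cells. SNRNP40, a WD-repeat protein of U5, stood at 50.01, 71.5, 54.4 FPKM in untreated and 50.5, 73.04, 47.5 in treated miR-139 cells, and 49.7, 78.1, 45.1 in untreated and 50.7, 88.9, 47.7 in treated scrambled cells. PRPF8 overlapped between tags, and SNRNP40 did not, with the NE libraries highest. EFTUD2, the U5 GTPase, stood at 86.4, 106, 71.05 FPKM in untreated and 89.6, 109, 74.3 in treated miR-139 cells, and 80.3, 104, 77.3 in untreated and 85.2, 126, 73.5 in treated scrambled cells, and its NE libraries were again the 4 highest. SNRNP200, the helicase that unwinds U4 from U6, ranged over 98.3 to 117 FPKM, PRPF6, a bridge within the tri-snRNP, over 85.9 to 127, and DDX23, the helicase that displaces U1, over 56.9 to 87.1.

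Of the minor spliceosome, SNRNP25 and SNRNP35 are proteins of the U11/U12 particle. SNRNP25 stood at 38.03, 79.2, 52.7 FPKM in untreated and 45.9, 74.3, 52.02 in treated miR-139 cells, and 34.7, 89.8, 54.2 in untreated and 40.3, 103, 48.9 in treated scrambled cells. SNRNP35 stood at 17.5, 22.3, 23.6 FPKM in untreated and 20.7, 24.6, 26.4 in treated miR-139 cells, and 18.3, 28.6, 25.4 in untreated and 19.5, 25.2, 22.7 in treated scrambled cells. Both had their 4 lowest values in the C libraries, and SNRNP25 had its 4 highest in the NE libraries.

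In the group around the PRP19 complex, PRPF19, a ubiquitin ligase and the core of the complex, stood at 137, 186, 136 FPKM in untreated and 146, 189.7, 129 in treated miR-139 cells, and 135, 213, 141 in untreated and 138, 220.1, 129.9 in treated scrambled cells. CWC22, which brings the exon junction helicase to the spliceosome, stood at 16.2, 11.2, 13.3 FPKM in untreated and 14.6, 10.1, 13.7 in treated miR-139 cells, and 15.8, 8.75, 13.95 in untreated and 16.9, 9.65, 13.8 in treated scrambled cells. SYF2 stood at 60.6, 38.5, 71.8 FPKM in untreated and 57.4, 35.4, 69.9 in treated miR-139 cells, and 64.6, 37.02, 53.98 in untreated and 63.6, 39.05, 63.2 in treated scrambled cells. The NE libraries were the 4 highest for PRPF19 and the 4 lowest for CWC22 and SYF2. AQR, a helicase that binds introns, stood at 20.5, 22.9, 18.3 FPKM in untreated and 20.7, 16.9, 16.7 in treated miR-139 cells, and 20.3, 13.6, 20.6 in untreated and 23.6, 16.04, 18.98 in treated scrambled cells. PPIE, a cyclophilin, stood at 28.5, 32.7, 31.8 FPKM in untreated and 25.4, 38.1, 29.7 in treated miR-139 cells, and 28.9, 42.2, 30.9 in untreated and 29.7, 53.1, 29.7 in treated scrambled cells. AQR overlapped between tags, and its highest NE value was in untreated miR-139 cells. PPIE had its NE libraries above all others. BCAS2, a core subunit beside PRPF19, ranged over 27.5 to 43.1 FPKM with the NE libraries lowest, and XAB2 (39.5 to 57.2) and CRNKL1 (26.6 to 39.9) had overlapping tags.

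The DEAH-box helicases DHX38 and DHX8 act in the late catalytic stage and in the release of the spliced mRNA. DHX38 stood at 38.7, 37.3, 33.6 FPKM in untreated and 38.96, 37.4, 33.9 in treated miR-139 cells, and 33.2, 34.5, 39.7 in untreated and 43.4, 36.5, 33.8 in treated scrambled cells. DHX8 stood at 25.2, 32.0, 26.7 FPKM in untreated and 25.5, 29.3, 24.0 in treated miR-139 cells, and 24.9, 29.8, 28.5 in untreated and 23.6, 25.4, 27.8 in treated scrambled cells. The tags overlapped for both. PRPF38A, a protein of the spliceosome before activation, stood at 18.2, 25.2, 20.1 FPKM in untreated and 18.6, 26.8, 19.3 in treated miR-139 cells, and 16.03, 21.4, 19.2 in untreated and 20.7, 24.5, 20.8 in treated scrambled cells, with the NE libraries highest. Its relative PRPF38B stood at 48.9, 48.1, 47.04 FPKM in untreated and 49.2, 39.7, 46.7 in treated miR-139 cells, and 41.4, 36.02, 47.9 in untreated and 46.9, 37.9, 47.5 in treated scrambled cells, with overlapping tags.

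The first comparison asked whether the splicing machinery changed when the miRNA was induced. Of 43 members 0 passed the test in limma (adjusted p under 0.05 over 9778 genes) in the miR-139 line, against 0% of all tested genes, and 0 members had an unadjusted p under 0.05, against 0.736% of all genes. With same-tag libraries blocked the count was again 0 of 43, against 0.0205% of all genes (2 genes, both lower), with 0 members at an unadjusted p under 0.05 against 4.48% of all genes. The members' median log2 change was −0.0054, with 21 of 43 positive, beside a median of 0.0032 and 51.2% positive over all tested genes. The 95% intervals of the 43 changes, with the block, lay between −0.48 and 0.49, and without it between −0.86 and 0.91. These are the outermost ends of 43 separate intervals, with a median SE of 0.0986 with the block and 0.182 without it. The median moved when single libraries were left out, which leaves the tags unequal between the groups. It was 0.059 with 33 of 43 positive without the untreated NE library of this line and 0.067 with 28 positive without the treated TR library. Without the treated NE library it was −0.061 with 11 positive. Without all NE libraries it was 0.0013 with 22 positive.

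The lowest and highest changes in the miR-139 line belonged to different particles. AQR was 20.6 ± 2.29 FPKM untreated and 18.1 ± 2.27 with doxycycline (SD, n = 3; limma, log2 −0.18, SE 0.19, adjusted p = 1), and its change within the C, NE and TR tags was 0.017, −0.42 and −0.13. PRPF39 was 16.9 ± 1.43 and 15.3 ± 4.27 (log2 −0.17, SE 0.29, adjusted p = 1), within tags 0.046, −0.53 and −0.030. In both genes the NE pair carried most of the difference, and the mean change of PRPF39 without the NE libraries was 0.0081. At the upper end, LSM4 was 125 ± 20.3 and 144 ± 37.3 (log2 0.18, SE 0.34, adjusted p = 1), and SNRNP35 was 21.1 ± 3.24 and 23.9 ± 2.92 (log2 0.17, SE 0.18, adjusted p = 1). SNRNP35 was higher in 3 of 3 tags (by 0.23, 0.13 and 0.15), and its groups overlapped. SF3B1, the U2 subunit, had a log2 change of −0.16 (SE 0.33) and was lower in 3 of 3 tags. It fell short of the threshold with and without the block (limma, unadjusted p = 0.138 with it). Its change was largest in the NE pair, from 102 to 83.7 FPKM, beside 145 to 134 in C and 152 to 144 in TR.

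None of the 4 members with a seed match passed the test. Their log2 changes in the miR-139 line were −0.18 for AQR, −0.085 for DHX8, −0.029 for SF3A3 and 0.020 for PRPF38A, with a median of −0.057 and 3 of 4 negative. The 39 members without a match had a median of 0.0048. Over all tested genes the medians were −0.047 with the site (869 genes, 69% negative) and 0.0090 without (6746 genes, 46.7% negative). In the scrambled line, which has no induced miR-139-5p, the medians were 0.0032 for members with and 0.080 for members without the site, and 0.0037 and 0.026 over all tested genes. The values of these 4 genes there were 0.11, −0.11, −0.10 and 0.21 in the same order.

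**Figure D2:**
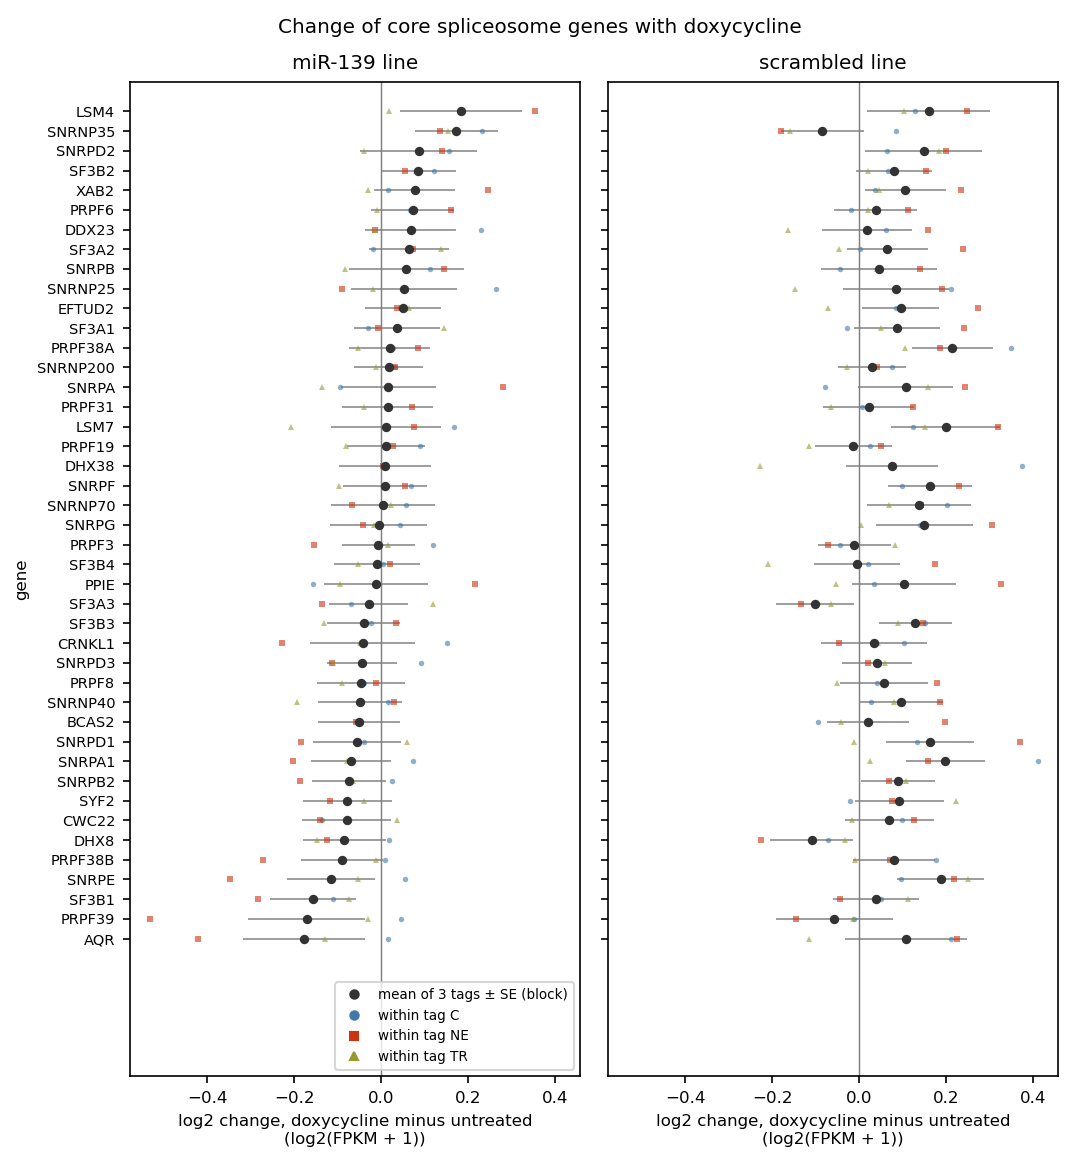
Log2 change with doxycycline of each of the 43 genes in miR-139 cells (left, which sets the order) and scrambled cells (right). Black points with bars are the mean of 3 tags ± SE of the blocked fit and coloured points the change within each tag; all means lie between −0.18 and 0.21.

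The scrambled line was compared in the same way. Its untreated libraries are labelled 0 h and its treated ones 96 h, as in the miR-139 line, so doxycycline, time in culture and the induced control RNA cannot be told apart. Again 0 of 43 members passed in limma, against 0% of all genes, with 0 members at an unadjusted p under 0.05 against 0.481%. With the block 0 of 43 passed against 0% of all genes, with 2 members (4.65%) at an unadjusted p under 0.05 against 4% of all genes. The 2 were PRPF38A and SNRPA1. In this line 36 of 43 changes were positive (83.7%, against 57.8% of all genes), with a median of 0.080 beside 0.023 over all genes. Without the treated NE library of this line alone, which leaves the tags unequal between the groups, the median was −0.070, and 16 of 43 changes were positive. Without all NE libraries it was 0.041 with 30 positive.

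PRPF38A, highest in this comparison, was 18.9 ± 2.72 FPKM untreated and 22.01 ± 2.199 with doxycycline (SD, n = 3; limma, log2 0.21, SE 0.18, adjusted p = 1) and was higher in 3 of 3 tags. LSM7 was 186 ± 64.5 and 218 ± 93.2 (log2 0.20, SE 0.29, adjusted p = 1), with the treated NE library, 325 FPKM, the highest of all 12. At the lower end DHX8 was 27.7 ± 2.56 and 25.6 ± 2.12 (log2 −0.11, SE 0.14, adjusted p = 1) and SF3A3 was 78.2 ± 2.95 and 72.8 ± 1.03 (log2 −0.10, SE 0.13, adjusted p = 1). Both were lower in 3 of 3 tags.

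The interaction, the doxycycline change of the miR-139 line minus that of the scrambled line, asked whether the difference between 0 h untreated and 96 h treated cells was another one in the miR-139 line. In limma 0 of 43 members passed, against 0% of all genes, or against 0.0102% where tags were blocked. In either fit 0 members reached an unadjusted p under 0.05, against 0.419% of all genes unblocked and 3.44% blocked. The median was −0.077 with 10 of 43 positive, beside −0.021 and 44.4% over all genes. Without the treated NE library of the scrambled line alone it was 0.081 with 26 positive, and without all NE libraries −0.050 with 16 positive. The lowest was SNRPE, an Sm protein (log2 −0.30, SE 0.21, adjusted p = 1), at 148 ± 21.8 FPKM in untreated and 136 ± 4.71 in treated miR-139 cells, and 126 ± 15.1 and 144 ± 17.6 in scrambled cells. AQR followed (log2 −0.29, SE 0.26, adjusted p = 1). The highest was SNRNP35 of the minor spliceosome (log2 0.26, SE 0.26, adjusted p = 1), positive within all 3 tags at 0.15, 0.31 and 0.31, and then SF3A3 (log2 0.072, SE 0.19, adjusted p = 1). The blocked 95% intervals of the 43 interactions lay between −0.71 and 0.55.

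Between the lines, 0 of 43 members passed in limma after doxycycline and 0 before it, against 0% of all genes in each case, and 0 had an unadjusted p under 0.05, against 1.07 and 0.593% of all genes. With the block the counts were again 0, against 0.112% of all genes (0.0716% higher and 0.0409% lower) in treated and 0% in untreated cells, with 3 members (6.98%, against 7.18% of all genes) and 5 members (11.6%, against 4.45%) at an unadjusted p under 0.05. In treated cells LSM7 (log2 −0.30, SE 0.29, adjusted p = 1) and PPIE (log2 −0.23, SE 0.23, adjusted p = 1) were lowest in the miR-139 line relative to the scrambled one, and PRPF3 (log2 0.21, SE 0.12, adjusted p = 1) and SF3A3 (log2 0.13, SE 0.13, adjusted p = 1) highest. LSM7 was 169.6 ± 35.8 FPKM in miR-139 cells and 218 ± 93.2 in scrambled cells (SD, n = 3). Without the NE library of the scrambled line alone, which keeps that of the miR-139 line, its log2 value was 0.028. Under the alternatives other than single omissions, which include a fit without all NE libraries, it was −0.39 to −0.14. PRPF3 was 40.5 ± 2.22 and 34.9 ± 2.71, higher in the miR-139 line in 3 of 3 tags, and it was also higher there before treatment, by 0.20 (SE 0.12).

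In untreated cells SNRPE was highest in the miR-139 line relative to the scrambled one (log2 0.23, SE 0.15, adjusted p = 1; 148 ± 21.8 against 126 ± 15.1 FPKM), followed by SF3B1 (log2 0.23, SE 0.33, adjusted p = 1; 133 ± 27.1 against 117 ± 37.3). SF3A2 (log2 −0.17, SE 0.18, adjusted p = 1) and SNRNP35 (log2 −0.17, SE 0.18, adjusted p = 1) were lowest. The value of SF3B1 was −0.073 without the untreated NE library of the scrambled line alone, which keeps that of the miR-139 line. Under the alternatives other than single omissions it was 0.11 to 0.29. The blocked intervals lay between −0.57 and 0.39 in treated and between −0.38 and 0.49 in untreated cells. The 5 comparisons share groups of libraries, and their values are not independent.

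The tag of a library went with much larger differences than its group. Tag held 78.3% of the sum of squares of the 43 genes and group 6.91%, against 62.5% and 13.1% over all tested genes. It held 93.4% for PRPF19, 92.0% for SNRNP25 and 91.9% for SNRNP40, and 4.61% for CRNKL1. Comparing the 4 NE libraries with the 8 C and TR libraries, with group as a term in limma, called 32 of 43 members (74.4%), 26 higher and 6 lower, against 52.0% of all tested genes (28.0% higher and 24.0% lower). At an unadjusted p under 0.05 the counts were 35 members (81.4%) and 58.0% of all genes. The members' median difference was 0.22, beside 0.016 over all genes. Of the calls 81.2% were higher; with quantile normalization there were 24 calls against 49.3% of all genes, 17 higher and 7 lower (70.8% higher), and the median was 0.083, and with upper quartile scaling 27 calls against 51.9% of all genes, 20 higher and 7 lower (74.1% higher), and a median of 0.12.

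In some roles the called genes among the 43 all lay on 1 side. All 7 Sm genes were called higher in the NE libraries, by 0.18 to 0.79, although SNRPD1, SNRPD3 and SNRPE were not called under upper quartile or quantile scaling and SNRPD3 had a value of −0.030 under the latter. SNRPG led the ring (log2 0.79, SE 0.083, adjusted p = 1.11e-05; 420.4 ± 61.9 FPKM in NE, 229.9 ± 11.2 in C and 252 ± 15.7 in TR, SD, n = 4). SNRPB followed at 0.61 (SE 0.10). In U4/U6 and its LSm ring, LSM4 (0.78), LSM7 (0.67) and PRPF31 (0.39) were called higher and PRPF3 (0.023) was not called. In U5 and the tri-snRNP, SNRNP40 (0.64), EFTUD2 (0.48), PRPF6 (0.33) and DDX23 (0.25) were higher, and PRPF8 (0.084) and SNRNP200 (0.11) were not called. SNRNP25 of the minor spliceosome had the highest value of all 43 (log2 0.91, SE 0.092, adjusted p = 8.58e-06; 86.5 ± 12.5 FPKM in NE against 39.7 ± 4.695 in C and 51.98 ± 2.25 in TR), and its partner SNRNP35 was higher by 0.21, uncalled under either scaling.

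Other particles split. In U2, SF3B4 (0.44), SF3B3 (0.37), SF3A1 (0.32), SF3B2 (0.31) and SF3A2 (0.22) were higher, SF3A3, SNRPA1 and SNRPB2 were not called, and SF3B1 had the lowest value of all 43 members (log2 −0.80, SE 0.074, adjusted p = 5.55e-06). SF3A2 and, in the tri-snRNP, DDX23 were uncalled under both scalings, and SNRPA, SF3B2 and PRPF6 under quantile normalization. SNRPB2 was called lower under quantile normalization (−0.16, limma, adjusted p = 0.0331). AQR was called lower under upper quartile scaling (−0.31, limma, adjusted p = 0.0386). SF3B1 averaged 82.7 ± 14.04 FPKM in NE, 139 ± 4.93 in C and 147 ± 5.73 in TR (SD, n = 4). SF3A3 lay just outside the threshold (log2 0.17, SE 0.068, adjusted p = 0.0504). In U1, SNRNP70 (0.55) and SNRPA (0.30) were higher and PRPF39 was lower (log2 −0.67, SE 0.10, adjusted p = 0.000131). Of the 8 genes around the PRP19 complex, PRPF19 (0.56) and PPIE (0.47) were higher, SYF2 (−0.73), CWC22 (−0.53) and BCAS2 (−0.35) were lower, and XAB2, CRNKL1 and AQR were not called. PRPF38A was higher (0.34) and PRPF38B lower (−0.22), and neither DHX8 (0.17) nor DHX38 (−0.013) was called.

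**Figure D3:**
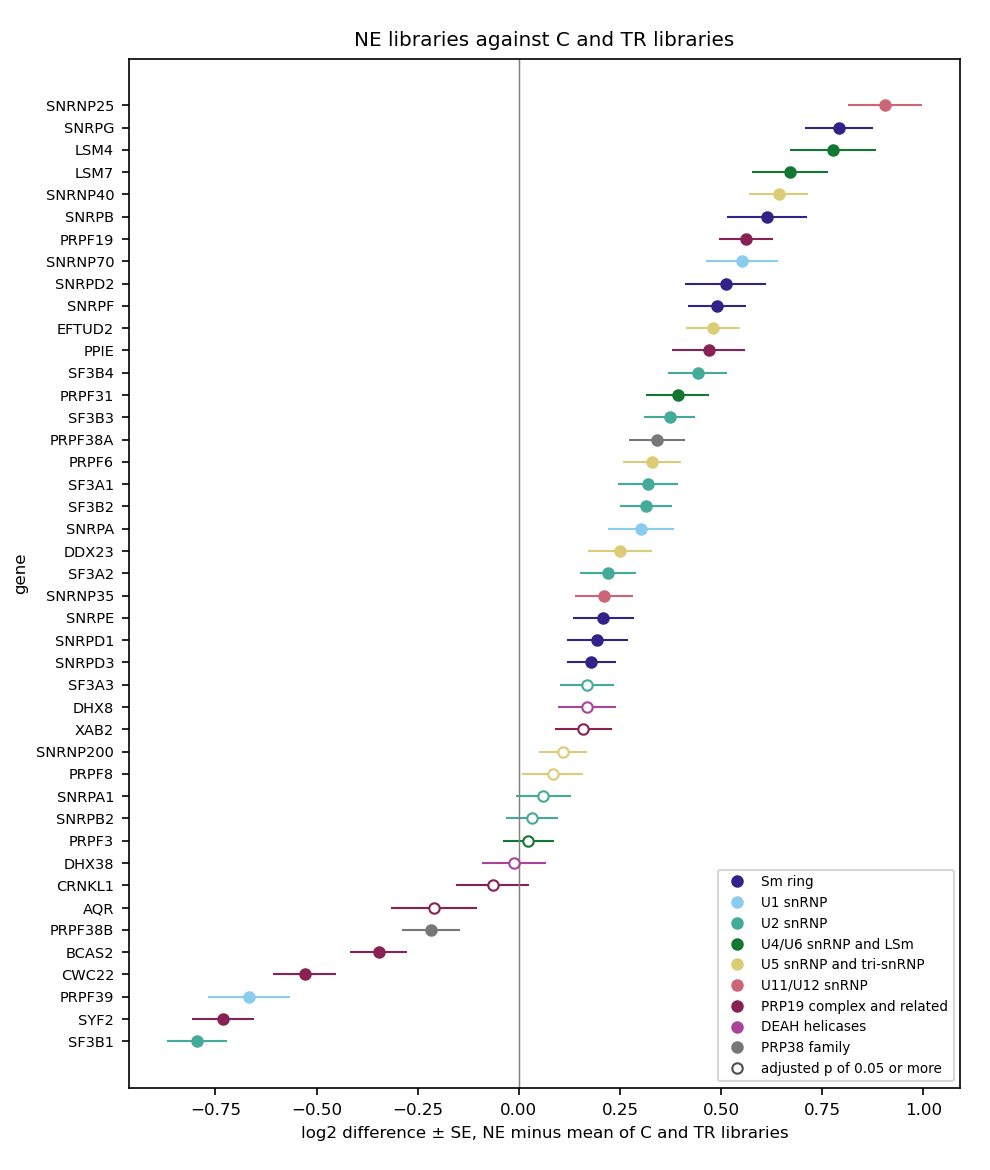
Log2 difference ± SE between the 4 NE libraries and the mean of the C and TR libraries for each of the 43 genes, coloured by role; open points did not pass the test. Filled points run from SF3B1 (−0.80) to SNRNP25 (0.91), with 6 below 0 and 26 above.

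Without any model, 22 members had all 4 NE libraries above all 8 others, against 14% of all tested genes, and 5 had all 4 below (PRPF39, SF3B1, BCAS2, SYF2 and CWC22), against 10.0%. The other 16 overlapped. In shares, 51.2% of the members lay above and 11.6% below. In the untreated libraries alone 16 members were called (11 higher and 5 lower), all of them among the 32, against 19.1% of all genes, and in the treated libraries alone 27 were called, against 41.0% of all genes.

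**Figure D4:**
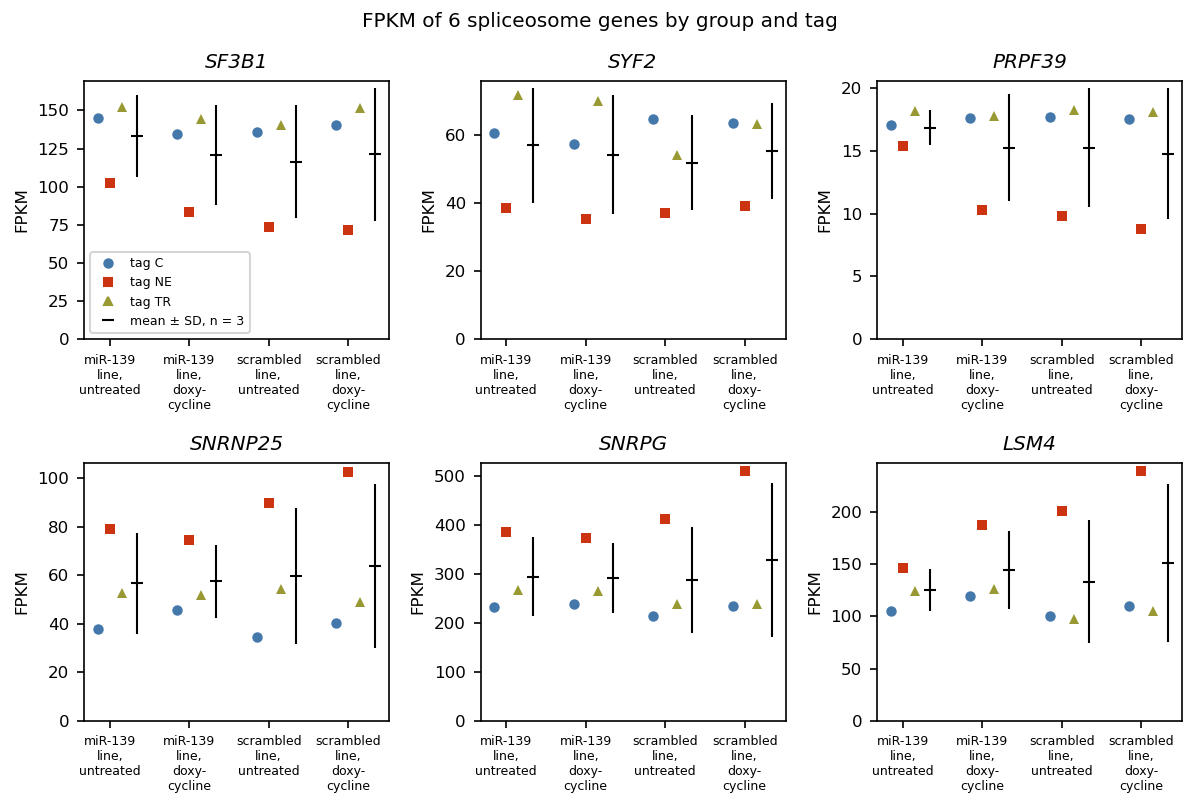
FPKM of SF3B1, SYF2, PRPF39, SNRNP25, SNRPG and LSM4 in each library by group, tag shown by colour and shape, with the mean ± SD of the 3 libraries of a group at its right. In the upper row the NE library is the lowest of each group, in the lower row the highest, and the mean ± SD bars of the 4 groups overlap.

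Ratios between members of 1 role, taken within a library, do not depend on the library total. The ratio of SF3B1 to SF3B3 was 1.48 to 1.69 in the C and TR libraries and 0.524 to 0.954 in the NE libraries, and that of SF3B1 to SF3B2 was 0.568 to 0.749 and 0.236 to 0.411. The ratio of SF3B3 to SF3B2, without SF3B1, overlapped at 0.357 to 0.481 and 0.424 to 0.451. In the PRP19 complex, SYF2 to PRPF19 was 0.383 to 0.542 in C and TR and 0.174 to 0.207 in NE, and BCAS2 to PRPF19 was 0.254 to 0.319 and 0.130 to 0.174. PRPF39 to SNRNP70, in the U1 role, was 0.092 to 0.11 and 0.0274 to 0.0673. In the minor spliceosome SNRNP25 to SNRNP35 was 1.89 to 2.24 and 3.02 to 4.08. Within the Sm ring, SNRPG to SNRPE was 1.69 to 2.15 and 2.25 to 3.11, and SNRPB to SNRPD3 was 5.42 to 6.29 and 6.31 to 9.58. The ratio of SNRPB to SNRPD1 overlapped at 9.33 to 11.4 and 11 to 16.4. The pairs were chosen after their values were seen and show unequal differences, not which partner differed.

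Members that were higher and lower in the NE libraries also differed in sequence. The transcripts of the 6 lower members had a GC content of 36.9 to 41.8% (median 40.5%), and those of the 26 higher ones 39.0 to 66.6% (median 53.9%). Across the 43 genes the NE difference correlated with GC content (Spearman's rho 0.511) and with transcript length (rho −0.496), and across 7615 tested genes with rho 0.372 and −0.327; genes are not independent replicates, and the points share their libraries. SNRPG, with a difference of 0.79, had a low GC content (39.7%) but the shortest transcript of the 43 (527 bases), and SYF2, with a difference of −0.73, had a short transcript (1345 bases) but a low GC content (41.8%). After each library's log2 values were adjusted for GC content and length, 32 members were called, 27 higher and 5 lower, of which 27 were among the 32 called before, against 58.5% of all genes. SF3B1 was then −0.54, SYF2 −0.70, PRPF39 −0.42, CWC22 −0.32 and BCAS2 −0.25, all called, and PRPF38B, at −0.034, was not called. SNRPD3, SNRPA, SF3A2 and SNRNP35 were not called either, the last at −0.019. SNRNP25 was 0.66 and SNRPG 0.84, both called. The calls gained, all higher, were SNRPB2 (0.24), SF3A3 (0.17), SNRNP200 (0.11), CRNKL1 (0.14) and DHX8 (0.17). SNRPB2 had been called lower under quantile normalization.

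**Figure D5:**
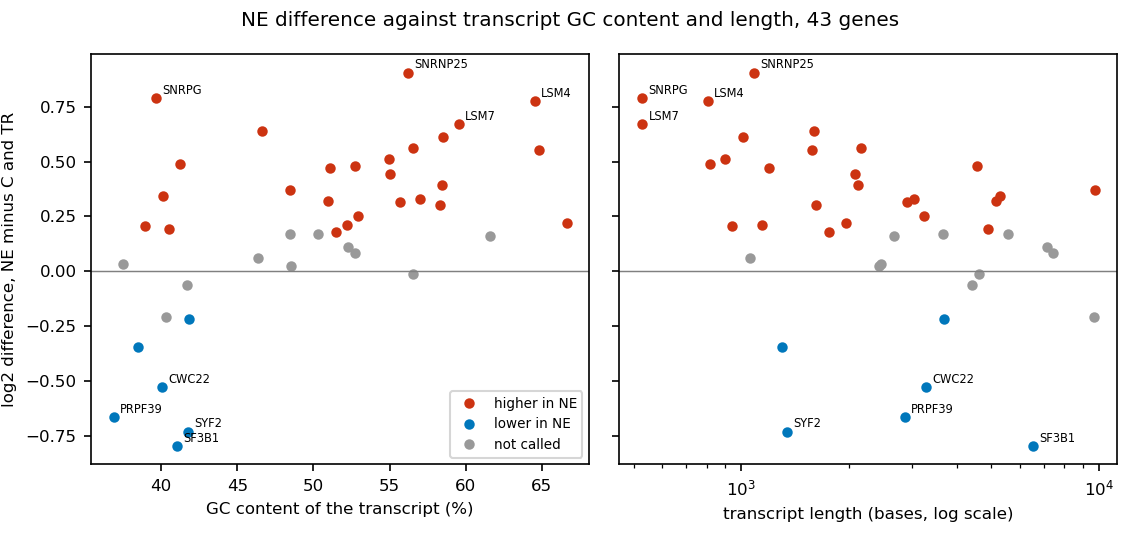
Log2 difference between the NE and the C and TR libraries against the GC content (left) and the length (right, log scale) of the transcript for the 43 genes. The 6 lower genes lie at or below 41.8% GC, where genes called higher, such as SNRPG, also lie.

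The C and TR libraries differed far less. Between them 3 of 43 members were called in limma (6.98%), against 16.6% of all tested genes (8.49% higher and 8.16% lower), and the median was 0.0043. The U11/U12 proteins among the 43, SNRNP25 (log2 0.39, SE 0.11, adjusted p = 0.0245) and SNRNP35 (log2 0.35, SE 0.083, adjusted p = 0.0118), were higher in TR. SF3A2 of U2 was lower (log2 −0.34, SE 0.081, adjusted p = 0.0128). SNRNP35 averaged 24.5 ± 1.68 FPKM in TR and 18.99 ± 1.39 in C, and SF3A2 51.8 ± 5.82 and 65.4 ± 0.547 (SD, n = 4). For each of the 3 genes the TR and C libraries did not overlap. The 3 were picked by the test on these same values, and the share of all genes without such overlap was not counted. EFTUD2, next lowest, was not called (log2 −0.20, SE 0.076, adjusted p = 0.0814). The 3 calls depended on the libraries used: 0 members were called in the untreated or the treated libraries alone (adjusted p of at least 0.0543 and 0.182), and 1 was called without the untreated C library of either line or without the treated TR library of the miR-139 line.

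Other genes of the pathway gave the same counts by group. Of 53 other spliceosome genes and 12 genes of snRNP assembly that were tested, 0 were called in any of the 5 group comparisons in limma. In the miR-139 line ZMAT5 of the minor spliceosome had the highest change with doxycycline (0.36, SE 0.28) and RBM25 the lowest (−0.16, SE 0.31) of the former, and CLNS1A (0.072, SE 0.14) and GEMIN2 (−0.18, SE 0.19) of the latter. In the NE comparison 25 other spliceosome genes were called higher and 12 lower (69.8% of 53, against 52.0% of all tested genes). Highest among them were PHF5A, a further SF3B subunit (0.82, SE 0.09), LSM10 (0.75), PPIH (0.71), ZMAT5 (0.61) and NHP2L1 (0.60). Lowest were LUC7L3 (−0.86, SE 0.08), RBM25 (−0.74), RNPC3 (−0.58), SRRM2 (−0.52) and DDX42 (−0.43). LSM10 is counted in this list but belongs to the U7 snRNP, which is not part of the spliceosome. ZMAT5 and RNPC3, both of the minor spliceosome, differed in opposite directions. Of the 12 assembly genes 6 were higher and 0 lower (50%), a share called no larger than the 52.0% of all tested genes (28.0% higher and 24.0% lower). The highest were GEMIN6 (0.82), WDR77 (0.80), GEMIN7 (0.56) and GEMIN4 (0.54), which act in loading Sm proteins onto snRNAs.

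Promoters of 37 of the 43 members were matched in RefSeq (GRCh38.p14), as the 250 bases before to 50 after a listed start, with a single start kept for each gene. That start can lie inside the gene. The SNRPG window lay wholly within its gene and the SNRPE window almost wholly, so the counts below include some sequence from within genes. The letters CCGGAAG, a core bound by ETS factors, occurred on either strand in 18 of 37 (48.6%), against 20.9% of the promoters of 6451 tested genes. AAGATGG, a YY1 core, occurred in 21.6% against 8.14%, CCAAT in 40.5% against 37.6%, the core of the NRF1 motif in 2.7% against 2.34%, and TATAAA in 0% against 4.54%. The ETS core was in 9 of the 22 matched members called higher in the NE libraries and 1 of the 5 called lower, SYF2. The rest of the 18 members with the core were called in neither direction. A pair of promoters shows the motifs, in capitals: SYF2, lower in NE, with 3 ETS cores (chr1:25232453-25232752, minus strand), and SNRNP40, higher in NE, with 4 CCAAT boxes (chr1:31296739-31297038, minus strand). Binding to these letters was not measured.
SYF2 promoter: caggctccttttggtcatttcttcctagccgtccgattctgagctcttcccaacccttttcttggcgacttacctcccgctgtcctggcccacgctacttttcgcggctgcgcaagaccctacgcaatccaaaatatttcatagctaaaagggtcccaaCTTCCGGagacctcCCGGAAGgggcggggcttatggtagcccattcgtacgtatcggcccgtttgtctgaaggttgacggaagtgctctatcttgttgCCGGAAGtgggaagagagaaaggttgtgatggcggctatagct
SNRNP40 promoter: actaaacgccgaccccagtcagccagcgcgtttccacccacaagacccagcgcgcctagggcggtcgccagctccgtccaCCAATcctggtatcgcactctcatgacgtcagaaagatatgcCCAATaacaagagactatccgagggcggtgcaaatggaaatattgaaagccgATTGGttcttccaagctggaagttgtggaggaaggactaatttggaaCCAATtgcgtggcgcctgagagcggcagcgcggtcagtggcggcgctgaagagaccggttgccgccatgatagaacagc

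Near-identical gene copies could divide reads with a member. Of the members 9 have named pseudogene copies in the table, 34 in all, of which 6 were above 0 in any library. The copies of 1 member summed to at most 0.209% of its FPKM (SNRPE).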

How the data were processed

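Total RNA was extracted with Trizol, and strand-marked polyA libraries were sequenced on a HiSeq2500, per the labels' protocols. The authors deposited FPKM values, of which 37471 genes in 12 libraries were used; chromosomes 3 to 9 are not analysed here, and some thyroid markers are not reported here. Aligners listed in the submitters' processing notes are STAR 2.5, TopHat, TopHat2 2.0.10 and Bowtie 1.0.0, beside Cufflinks, HTSeq, SAMtools 1.3.1 and 0.1.19 and FastQC 0.11.0, with hg19 and GRCh37. The sources used here do not say which tool made the values or whether it used strand. Each FPKM is relative to each library's total, so a set of genes that takes a larger share lowers the rest.

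Column names gave group and tag, so libraries were placed in their group only. limma 3.58.1 (R 4.3.3, trend, two-sided) was run on log2(FPKM + 1) over the 9778 genes with a mean of at least 1 FPKM, with Benjamini-Hochberg adjustment and a threshold of 0.05. Changes on this scale understate those of low genes. Without a block, 4 group means gave 5 comparisons; tags were compared with group as a term. Tags pair the libraries: deviations from group means correlated in all 18 same-tag pairs (r 0.326 to 0.858), and at −0.659 to 0.144 in 36 pairs of different tags. A fit with tag as the replicate block therefore stands beside the unblocked one.

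The members and lists were chosen with earlier results of these data known. Values in every library are given for the highest and lowest member of each role and the 2 highest and 2 lowest changes of each comparison; other pathway genes are named up to 5 in each direction, or the 1 highest and 1 lowest. The list of 53 other spliceosome genes and the list of 12 assembly genes, the GENCODE 29 site search and the GC and length adjustment (natural splines, 7615 matched genes) were run on the same table. Alternatives were the pseudocount, filter, scaling, variance prior, block, and subsets of libraries. Scripts were tested on simulated data: of 200 genes changed by 0.5 (log2) with doxycycline in the miR-139 line among 9778, the blocked fit recovered 44% and the unblocked fit 0%, and of those changed by 1, 94% and 66.5%.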

Additional observations from a re-analysis of the deposited data

Results flagged for a closer look

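The difference between the NE and the other libraries was compared between the lines. An interaction of line and tag in limma, chosen after seeing the data, called 13 of 43 members, against 16.5% of all tested genes. The quantity is the NE difference in the scrambled line minus that in the miR-139 line, on the log2 scale. Of the 13, 10 were positive and 3 negative, against 10.3% and 6.21% of all tested genes. These counts became 7 and 5 with upper quartile scaling and 1 and 4 with quantile normalization. In the Sm ring they were SNRPB 0.48 (SE 0.10, adjusted p = 0.0206), SNRPD2 0.50 (SE 0.10, adjusted p = 0.0179), SNRPF 0.30 (SE 0.089, adjusted p = 0.0437) and SNRPG 0.38 (SE 0.10, adjusted p = 0.0269). In U1 the value was SNRNP70 0.48 (SE 0.086, adjusted p = 0.0173). In U4/U6, LSm and the tri-snRNP they were PRPF31 0.36 (SE 0.090, adjusted p = 0.026), LSM4 0.60 (SE 0.10, adjusted p = 0.0173), LSM7 0.44 (SE 0.11, adjusted p = 0.0265) and PRPF6 0.31 (SE 0.088, adjusted p = 0.0379). In the minor spliceosome it was SNRNP25 0.41 (SE 0.13, adjusted p = 0.0494). The 3 negative values were SF3B1 −0.33 (SE 0.093, adjusted p = 0.0359), CRNKL1 −0.46 (SE 0.12, adjusted p = 0.026) and AQR −0.52 (SE 0.14, adjusted p = 0.0347). LSM4 was higher in NE by 0.48 among miR-139 and by 1.08 among scrambled libraries, and AQR differed by 0.049 and −0.47. Of the 32 members called in the NE comparison, 29 had a larger difference of the same sign in the scrambled line. The same count was not made over all tested genes, so it cannot be read as particular to the members. The members' median was 0.18 among miR-139 and 0.28 among scrambled libraries, beside 0.011 and 0.034 over all genes. The NE libraries of the 2 lines also differ in their share of mitochondrially encoded genes, at 9.18 and 7.56% (miR-139, untreated and treated) and 8.32 and 6.09% (scrambled), and the part of this in the result was not tested. The count was 0 with no filter on low values, and 2 after GC and length adjustment: SNRPD1 and SF3B3, which are not among the 13 and were chosen for naming after their values were seen (0.840% of all genes were then called).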

How the results depend on the processing

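In the 5 group comparisons 0 of 43 members were called under every alternative run (pseudocount, filter, scaling, no trend, subsets of libraries, each library left out), and a fit with tag as the replicate block called 0 as well, also without the C, NE or TR libraries. The range without each library in turn was 0 to 0 in all 5. In the NE comparison 32 members became 16 with only untreated libraries, 24 with quantile normalization, 29 with no filter, and 27 to 33 without each library in turn, and 26 and 34 in the miR-139 and the scrambled line alone. Between TR and C, 3 became 0 with only untreated or only treated libraries, 4 with quantile normalization, 2 with no filter, and 1 to 4 without each library in turn. The difference between lines in the NE effect (13 members) became 0 with no filter, 0 with no trend, 5 with quantile normalization (4 of the 13), 2 with GC and length adjustment (0 of the 13), and 0 to 14 without each library in turn, with 0 without the untreated NE or TR library of the miR-139 line or the treated NE library of the scrambled line, and 4 without the treated C library of the latter. Of 736 values of named members under alternatives, 676 kept their sign and their side of the threshold, 49 lost and 2 gained the call and 9 changed sign; the cause was not tested. In the miR-139 line PRPF39 was 0.0081 without the NE libraries, with the block and without it, and −0.30 to 0.070 without each library in turn, and LSM4 was −0.019 to 0.30. Over the same single omissions LSM7 was −0.13 to 0.47 with doxycycline in the scrambled line, the SF3A3 interaction −0.038 to 0.19, LSM7 and PPIE in treated lines −0.49 to 0.028 and −0.38 to 0.045, and SF3B1 in untreated lines −0.073 to 0.41. A single omission leaves the tags unequal between the groups. The depth is unknown, so no counting limit was set, and 3 libraries a group limit what could be detected.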
